A study of Rattus norvegicus with 85 samples.

Results

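The effect of stress in adolescence on A-to-I RNA editing was examined in the prefrontal cortex (PFC) of adult female Sprague-Dawley rats. The samples were chosen by their labels as PFC, P60, F0, and Control or PRS (pre-reproductive stress), which gave 5 control and 6 PRS samples, 11 of the 85 samples of the series. The F0 animals are the exposed generation itself. PRS rats were exposed as adolescents to unpredictable stressors over 7 days, and both groups were killed 2 weeks after the last of them, at about postnatal day 60. The control rats lived in the same kind of group housing without the procedure. Whole cages, not single rats, were randomised to control or PRS, and the cage of each rat is not given in the sources used here. The tests below treat each rat as independent, so their p-values leave out any likeness between cage mates and may be too small. Each sample is RNA from punches of PFC tissue, so editing in neurons and in glia was measured together. The files hold editing alone and no expression values, so the labelled region could not be checked against marker genes. Amygdala (AMY) samples of the same age, sex and strain (5 control, 7 PRS) were used only to ask whether the effect differed between regions. Samples are named below by group and by the number in their label.

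In A-to-I editing an ADAR enzyme deaminates an adenosine in double-stranded RNA to inosine, which ribosomes and reverse transcriptase read as guanosine. In coding sequence this can change an amino acid, and in the brain many such sites lie in ion channels and neurotransmitter receptors. Editing of the serotonin receptor 2C (Htr2c) lowers its coupling to G proteins, editing of the Q/R site of the AMPA receptor subunit Gria2 keeps the channel nearly impermeable to calcium, and editing of the GABA-A receptor subunit Gabra3 changes gating and trafficking of the receptor. The PFC takes part in executive control and in the regulation of the stress response. The comparison asks whether stress in adolescence left a difference in editing that was measurable in adulthood.

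The assay was mmPCR-seq: many primer pairs amplify chosen stretches of cDNA together, and the products are sequenced. Each site is covered only through its primers, so sites between the same pair share their reads. The primers of 4 receptor amplicons are shown because the lowest p-values among receptor sites were at sites between them. All are given 5′ to 3′. The capitals are the bases specific to the gene, and the tail common to the whole panel is left out.
Htr2c forward: CTTAGTCCGCGAATTGAACC
Htr2c reverse: GGGGATTATGTCTGGCCTTTA
Gabra3 forward: TTCATCTCCAGGGCCTCT
Gabra3 reverse: CAGTGCCAGAAACTCTTTACC
Gria3 forward: TGCCTTGTTCACTGAGTTTCA
Gria3 reverse: GAGTCGACCATGAACGAGTAC
Gria4 forward: GAGTTTCAAAACGGCAAGGT
Gria4 reverse: CTGGAGTCCACGATGAATGAA
The Htr2c pair covers sites A, B, C and D on the minus strand of chromosome X (rn4), at positions 31041849, 31041847, 31041842 and 31041837. The Gria3 pair covers the R/G site (X, 3477800) and the L site (X, 3477801), and the Gria4 pair covers the R/G site (chromosome 8, 994881) and the L site (8, 994882). The Gabra3 site lies at X, 158405626. All of these are exonic and on the minus strand.

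The editing level of a site is the share of its reads with G, as the authors computed it, and is given here in percent. A site was used in a sample with at least 50 reads and was tested with at least 3 such samples in each group. Of 179 listed positions, 144 were tested, 142 of them among the 146 sites that the study names. Summed over the study's sites, with a read counted once per site, control samples had 149296 to 1454247 reads and PRS samples 267572 to 1013946. With 50 reads, the 95% Wilson interval around 50% runs from 36.6% to 63.4%, and 3 edited reads correspond to 6%. Since amplified reads carry no molecular identifier, limits from read numbers hold for counting error only. At 2 unannotated Htr2c positions on the same amplicon, 1 of 60473 reads over the 11 samples carried G. These positions were not shown to be adenosines, so they give no background level of G calls for the edited sites.

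Control 29, the sample with the fewest reads, stood apart from the others. It was alone at the lowest level of the 11 samples at 48 of 134 sites measured in every sample, against 3 to 13 sites for each of the others. Its level was under 1% at 18 sites where the other samples averaged 5% or more. The same held for 0 to 4 sites in each other sample. Differences that it turned, or moved the most, are given with and without it.

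No site passed an FDR of 0.1. Each site was tested by a two-sided Mann-Whitney U test that enumerated every assignment of samples, and Benjamini-Hochberg adjustment ran over all 144 sites. With 5 samples against 6 the smallest p that this test can give is 0.00433, so at least 7 of the 144 sites had to have p-values at or near it for any to pass the adjustment. The number of sites past the threshold was 0 of 144 (0.0%), the smallest adjusted p was 0.623, and 6 sites (4.17%) had an unadjusted exact p under 0.05. Of these 6, 5 were higher in PRS (3.47% of the sites tested) and 1 was lower. An exact permutation test of group means also left 0 sites past the threshold and 6 under an unadjusted 0.05, of which 5 were the same sites. The intergenic site IG1 was no longer among them, and the 3′ UTR site Ankrd28 7169173, lower in PRS, was. At none of the 144 sites did the groups separate without overlap. These are values of bulk tissue, where a different mix of cell types and a different level within cells cannot be told apart.

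Averaged over the 134 sites with enough reads in all 11 samples, editing was 14.1% ± 0.388 in the controls (SD, n = 5). It was 14.3% ± 0.404 in the PRS rats (SD, n = 6). The control samples lay between 13.4% and 14.4%, and the PRS samples ended at 14.7% with the lowest inside the control range. The difference of 0.222 percentage points had an exact permutation p of 0.368. The Hodges-Lehmann shift, the median of all PRS minus control differences, was 0.209 points, with a 97.0% interval from -0.419 to 0.959. The mean was higher in PRS at 88 sites and lower at 53, and the median difference over all sites was 0.10 points. Without control 29 it was higher at 80 sites and lower at 61. The absolute difference was under 1 point at 90 sites and over 5 points at 7.

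**Figure D1:**
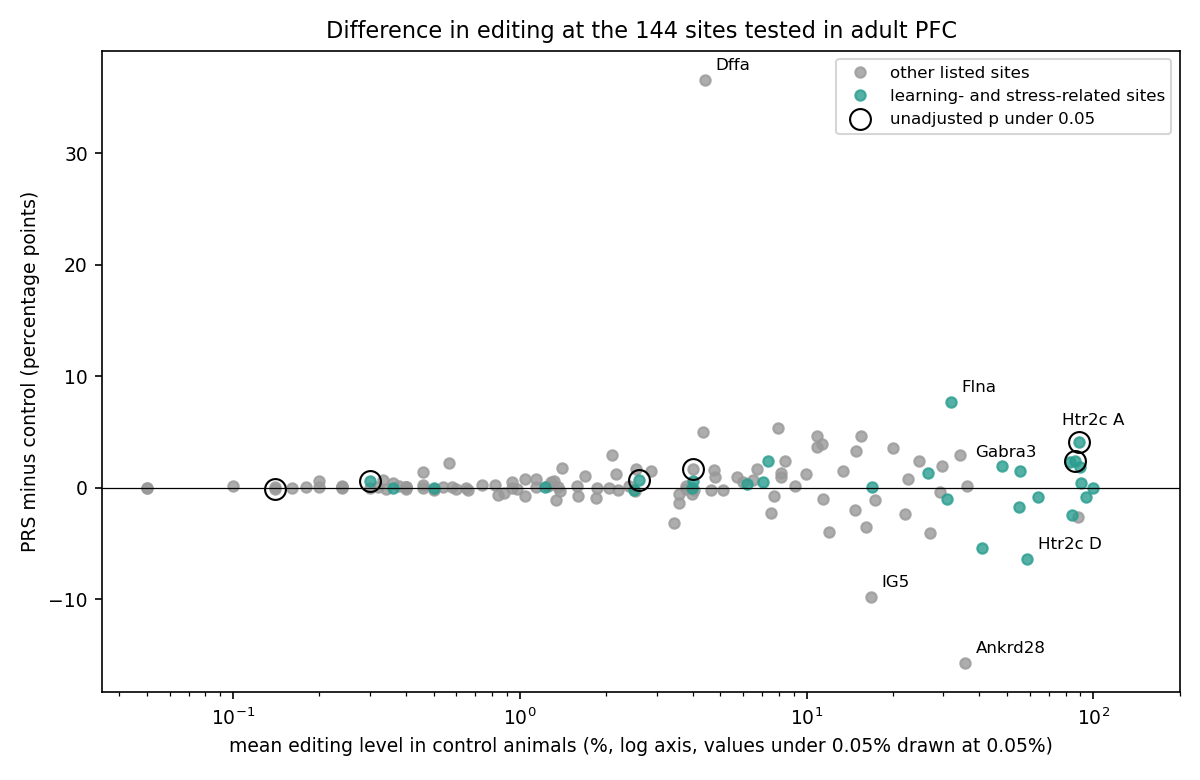
Difference in mean editing level, PRS minus control in percentage points, against the mean level in control rats in percent on a log axis, for the 144 sites tested in adult PFC (1 point per site). The 29 learning- and stress-related sites are in green and rings mark the 6 sites with an unadjusted p under 0.05. Most points lie near 0, and the points far from 0, such as Dffa and Ankrd28, carry no ring.

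At Htr2c, site A was higher in PRS, while the means at B, C and D were lower and these differences were within the spread between animals. Site A recodes isoleucine to valine in the second intracellular loop of the receptor, the part that meets the G protein. Its level was 91.5% in control 17, 91.5% in control 19, 90.4% in control 20, 89.2% in control 29 and 82.9% in control 32. In the 6 PRS samples it had a lowest value of 90.4%, a median of 92.6% and a highest value of 98.3%. Of the PRS samples, 5 lay above every control, and the groups overlapped through PRS 24 at 90.4%. The means were 89.1% ± 3.59 (SD, n = 5) and 93.2% ± 2.71 (SD, n = 6), a difference of 4.10 points with an exact p of 0.0238 and an adjusted p of 0.857. The shift was 2.75 points with a 97.0% interval from 0.5 to 9.1. This p depended on single animals. Without control 32 the difference was 2.55 points, and without control 29 it was 4.13 points. In both cases the exact p was 0.0524.

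Site B lies in the same codon as A and recodes isoleucine to methionine only where A is unedited. With both edited, the codon gives valine. Site B stood at 80.5%, 84.0%, 78.3%, 99.4% and 77.9% in controls 17, 19, 20, 29 and 32. The PRS samples ran from 71.7% through a median of 81.3% to 91.2%. The control group was spread around 80% except for control 29, which was edited almost completely. The means were 84.0% ± 8.93 and 81.6% ± 6.61 (exact p = 1). Site C, an asparagine to serine change, was 34.8%, 35.2%, 31.0%, 67.9% and 35.2% in the same controls and between 29.4% and 41.1% in PRS samples (median 35.5%). Here 4 controls lay within a few points of each other and control 29 lay far above them. The means of site C were 40.8% ± 15.2 and 35.4% ± 4.65 (exact p = 0.892). Site D, another isoleucine to valine change, was 51.1%, 58.2%, 56.4%, 77.1% and 51.5% in the controls and ran from 41.9% through 53.4% to 65.2% in PRS samples. Its means were 58.9% ± 10.6 and 52.5% ± 8.30, the fifth largest absolute difference among sites with a mean of at least 1% in either group (exact p = 0.429). Without control 29 the PRS minus control differences were 1.39 points at B, 1.38 at C and -1.82 at D, so the sign turned at B and C.

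The intervals of these differences are wide. The 97.0% interval ran from -16.9 to 7.6 points at B, from -31.1 to 5.9 at C and from -22.5 to 7.0 at D, and each interval holds differences of several points in either direction. Within an animal, A exceeded B by 6.5 to 18.7 points in PRS samples, and in controls the difference ran from -10.2 points in control 29 to 12.1. Outside the coding sequence, the first 3′ UTR site (X, 31014486) was 0.2% in control 29, between 7.9% and 17.3% in the other controls and between 13.2% and 18.1% in PRS samples (exact p = 0.247). The difference in means of 4.67 points at this site became 2.01 points without control 29. The second 3′ UTR site was at 0.40% and 0.483%, control first.

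**Figure D2:**
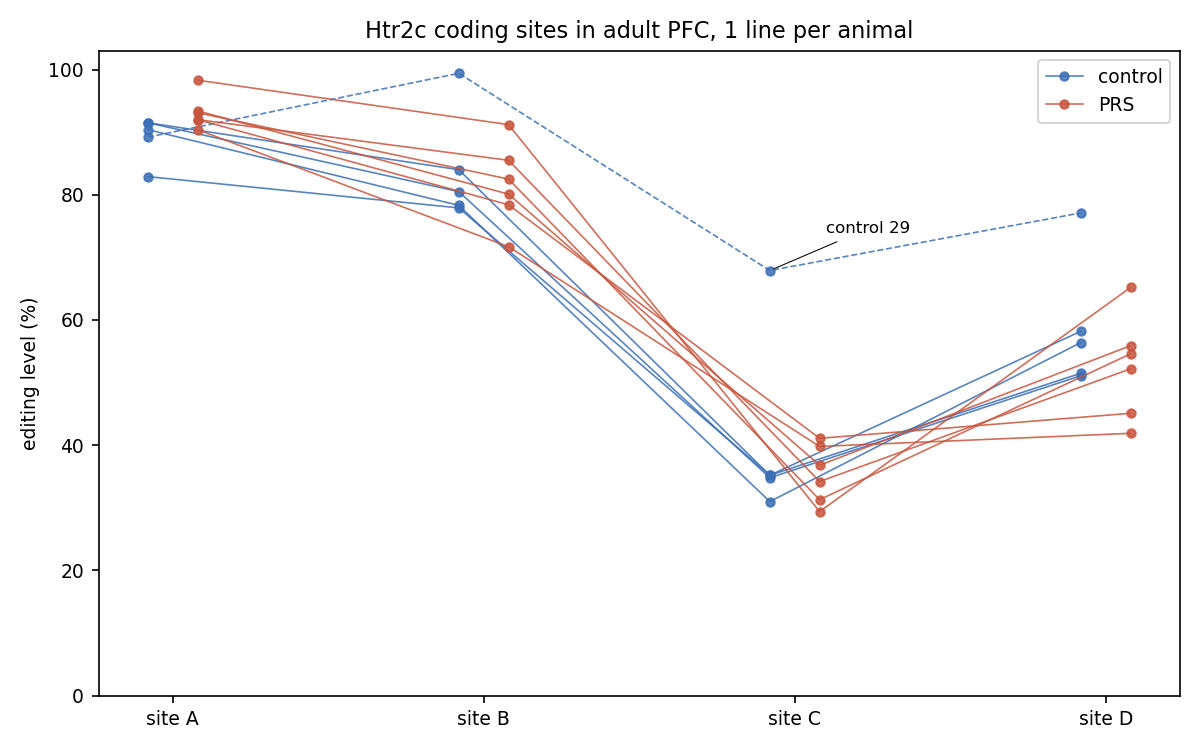
Editing level in percent at the 4 Htr2c coding sites in adult PFC, with 1 line per animal (5 control in blue, 6 PRS in red). The dashed line is control 29, which reaches 99.4% at site B and 67.9% at site C, above every other animal, while at site A 5 of 6 PRS animals lie above all controls.

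At Gabra3, where editing changes isoleucine to methionine in a membrane-spanning segment of the subunit, the values of PRS rats were higher. The controls gave 86.5%, 87.6%, 87.7%, 83.1% and 87.9% (controls 17, 19, 20, 29 and 32). The PRS samples ran from 87.9% through a median of 89.1% to 90.0%. The groups met at 87.9%, and 5 of 6 PRS samples lay above every control. The means were 86.6% ± 2.01 (SD, n = 5) and 89.0% ± 0.826 (SD, n = 6), and the difference of 2.41 points had an exact p of 0.00649 and an adjusted p of 0.623. The shift was 1.80 points, with a 97.0% interval from 0.3 to 5.9. Between 2301 and 13939 reads covered the site, and the 95% Wilson interval of control 32 (86.7% to 89.0%) overlapped that of PRS 33 (87.1% to 88.6%). Without control 29 the difference was 1.54 points (exact p = 0.0143).

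The AMPA receptor subunits Gria2, Gria3 and Gria4 carry an R/G site before the flip/flop exon, where editing speeds recovery from desensitisation, and an L site 1 base away that does not change the amino acid. The L sites of Gria3 and Gria4 were higher in PRS rats. The R/G sites beside them had slightly lower means, a difference that shrank or turned without control 29. Gria3 L was 2.7%, 2.4%, 2.9%, 2.4% and 2.6% in controls 17, 19, 20, 29 and 32. In PRS samples it ran from 2.8% through 3.15% to 4.2%, and 5 of 6 lay above every control. The means were 2.60% ± 0.212 and 3.33% ± 0.520 (exact p = 0.00866, adjusted p = 0.623), and the 97.0% interval of the shift was 0.2 to 1.5 points. Gria3 R/G, read on the same amplicon, was 94.0% ± 1.79 and 93.2% ± 0.502 (exact p = 0.515). Without control 29, at 96.5%, its difference went from -0.78 to -0.15 points.

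Gria4 L was edited in few molecules, at 0.3%, 0.1%, 0.3%, 0.1% and 0.7% in the same controls and from 0.4% through 0.85% to 1.5% in PRS samples. The groups overlapped through control 32, and 3 of 6 PRS samples lay above every control. The means were 0.30% ± 0.245 and 0.883% ± 0.397 (exact p = 0.0238, adjusted p = 0.857). These levels rest on 1 to 12 edited reads per control and 15 to 89 per PRS sample, and the 95% Wilson interval of control 32 (0.379% to 1.15%) covered the levels of 5 of the 6 PRS samples. Gria4 R/G was 64.1% ± 6.57 and 63.3% ± 2.38 (exact p = 0.931), and without control 29, at 74.1%, its difference turned from -0.783 to 1.72 points. At Gria2 the L site had nearly equal means, with control at 1.22% ± 0.228 and PRS at 1.25% ± 0.251 (exact p = 0.823). Gria2 R/G was 55.1% ± 0.952 and 53.4% ± 2.58 (exact p = 0.329).

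At the other AMPA receptor sites the groups overlapped. Gria2 Q/R (chromosome 2, 172288193), the site that sets calcium permeability, had means of 99.84% and 99.85%. The lowest value, 99.5%, was that of control 29. The synonymous Gria2 Q site 4 bases away was 30.8% ± 4.03 and 29.8% ± 0.684 (exact p = 0.755). Gria3 K, which recodes lysine to arginine, was 0.36% ± 0.182 and 0.367% ± 0.151. Over the 10 AMPA receptor sites the mean was higher in PRS at 5 and lower at 5, with a median difference of -0.22 points against 0.10 over all sites.

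**Figure D3:**
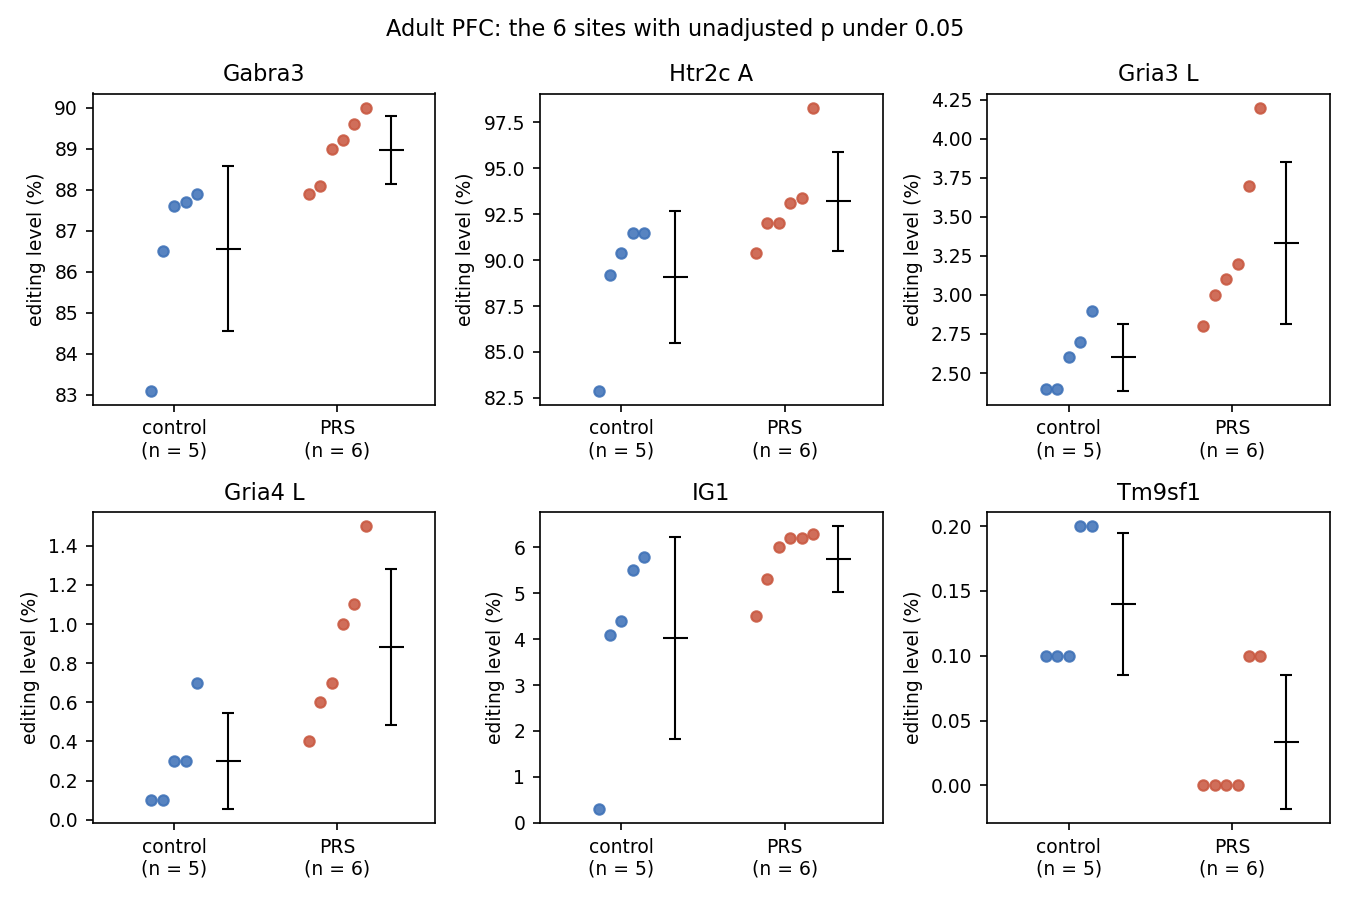
Editing level in percent at the 6 sites with an unadjusted exact p under 0.05, with 1 point per animal (5 control, 6 PRS) and the mean ± SD beside each group, on a separate vertical scale that need not start at 0 for each site. Gabra3, Htr2c A, Gria3 L, Gria4 L and IG1 are higher in PRS and Tm9sf1 is lower, and the groups touch or overlap in every panel.

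The kainate receptor sites of Grik1 and Grik2 showed no difference past the test. The mean was higher in PRS at 6 of the 7, beside 88 of 144 over all sites, but this count rested on control 29. Without that sample the mean was higher at 3 and lower at 4, and the median difference went from 0.527 to -0.025 points. Grik2 carries a Q/R site, which like that of Gria2 lowers calcium permeability, and a pair of recoding sites in its first membrane segment. Grik2 Q/R was 90.4% ± 1.40 and 90.9% ± 1.43 (exact p = 0.571). Grik2 Y/C was 89.6% ± 4.78 and 91.5% ± 1.32, and Grik2 I/V was 82.6% ± 3.98 and 84.9% ± 2.76. Control 29 was the lowest sample at Y/C, with 81.6%, and lay near the low end at I/V, with 78.9%. Without it the difference at Y/C turned from 1.83 to -0.183 points and that at Grik2 M/V from 0.527 to -0.383. The largest spread was at Grik1 Q/R (chromosome 11, 27749588), where the controls ran from 30.8% in control 29 to 55.7% and the PRS samples from 41.6% to 55.2%. Its means were 47.8% ± 10.2 and 49.8% ± 4.796 (exact p = 0.970), and its 97.0% interval, -8.7 to 20.0 points, was the widest among the kainate sites. Its difference turned from 1.95 to -2.31 points without control 29.

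A list of 29 sites linked to learning and stress, taken from the study, holds the receptor sites above with channel, Flna, Cadps and Blcap sites, among others. All 29 were tested, and 4 of them had an unadjusted exact p under 0.05 (Htr2c A, Gabra3, Gria3 L and Gria4 L), all higher in PRS, against 4.17% over all sites tested and 3.47% in that direction. The 115 other sites tested included 2. The list's sites share amplicons, so these are not 29 independent measurements. Over the list the mean was higher in PRS at 20 sites and lower at 8, with a median difference of 0.387 points against 0.10 over all sites. Without control 29 it was higher at 16 and lower at 13, with a median difference of 0.075 points.

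The remaining members of the list described here were within their spread. Flna, which encodes the actin crosslinker filamin A and is edited at a Q/R site (X, 160382329), had the largest difference in means, 31.8% ± 7.44 in control against 39.5% ± 10.4 in PRS rats. Its controls ran from 22.1% to 43.0% and its PRS samples from 28.6% to 57.9% (exact p = 0.329), and its 97.0% interval was -3.5 to 25.8 points. The difference of 7.66 points became 3.98 without PRS 24, its highest sample. Cadps E/G, in a gene needed for dense-core vesicle release, was 26.4% ± 1.77 and 27.8% ± 1.21 (exact p = 0.227).

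The potassium channel sites had nearly equal means. Kcna1, where editing speeds recovery from inactivation, was 16.9% ± 2.85 and 17.0% ± 1.82, and Kcnma1 was 3.98% ± 1.06 and 3.98% ± 0.376. Outside the list, the 3 sites of the calcium channel Cacna1d all had lower means in PRS rats, with differences from -2.36 to -0.35 points, and none passed the test. These sites lie close together and had nearly equal median read numbers in controls (1957 to 1975), so they are not 3 independent measurements. At the 3 Blcap sites the median read number in controls was 116 to 201, the lowest of the list. Blcap Y/C was 7.32% ± 4.66 and 9.73% ± 4.39 (exact p = 0.429).

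**Figure D4:**
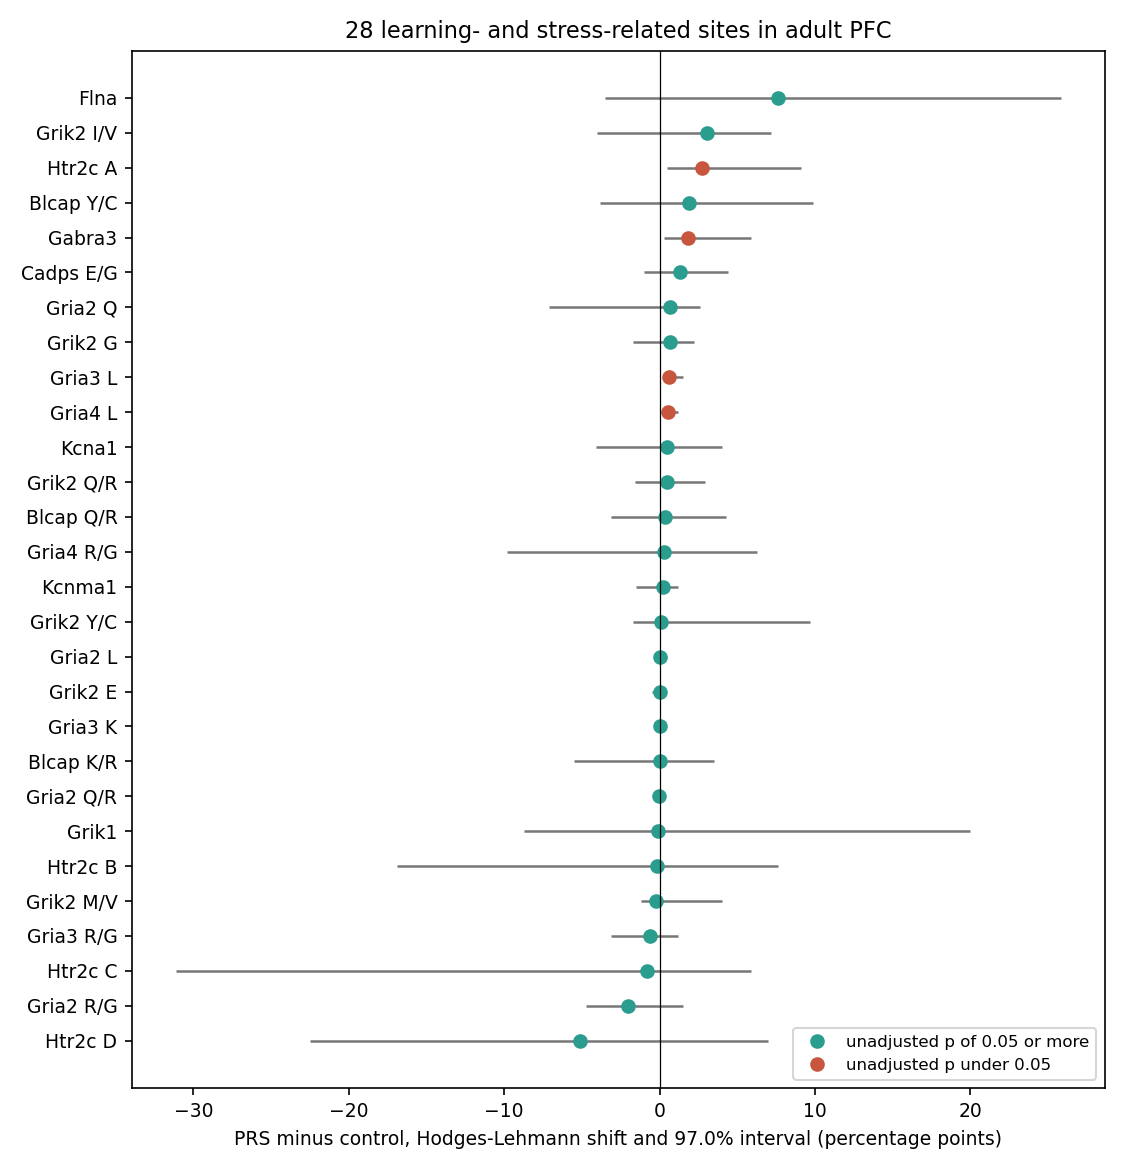
Hodges-Lehmann shift, PRS minus control in percentage points, with its 97.0% interval for 28 of the learning- and stress-related sites in adult PFC (5 control, 6 PRS). The 4 red points have an unadjusted p under 0.05 and intervals above 0, and the intervals of Htr2c B, C and D and of Flna are the widest together with Grik1.

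Sites outside the list gave 2 more with an unadjusted p under 0.05. Tm9sf1 recodes lysine to glutamate (chromosome 15, 33776765) and was 0.14% ± 0.0548 in control against 0.033% ± 0.0516 in PRS rats (exact p = 0.0325, adjusted p = 0.935). It was seen in 1 to 5 edited reads per control and 0 to 5 per PRS sample. The deposited level has 3 decimals as a fraction, and with levels recomputed from the reads the exact p was 0.119. The intergenic site IG1 (chromosome 7, 138469220) was 5.8%, 4.4%, 4.1%, 0.3% and 5.5% in controls 17, 19, 20, 29 and 32 and ran from 4.5% through 6.1% to 6.3% in PRS samples. Its means were 4.02% ± 2.199 and 5.75% ± 0.712 (exact p = 0.0476, adjusted p = 1), and without control 29 the difference of 1.73 points became 0.80. The exact p was 0.05 or more in 7 of the 11 runs with 1 sample left out, and was highest, at 0.10, without control 19, 20 or 29. Nor was p under 0.05 with a permutation of group means or with levels recomputed from the reads.

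Adarb1 encodes the editing enzyme ADAR2, whose own transcript is edited. The 4 sites tested lie close together on chromosome 20 and are annotated as 5′ UTR. Another listed position, 11709462, is annotated as intronic and had too few reads to be tested. None differed past the test. The means in control and PRS were 34.2% ± 8.35 and 37.2% ± 2.60 at 11709472 (exact p = 0.931), and 29.6% ± 2.55 and 31.6% ± 2.80 at 11709485 (exact p = 0.429). They were 88.3% ± 6.48 and 85.7% ± 1.70 at 11709486, and 3.58% ± 2.09 and 2.98% ± 1.24 at 11709490 (exact p = 0.537 for both). At 3 of the 4 sites control 29 was at an end of the range, with 21.1%, 99.4% and 0.2%, and without it the difference at 11709472 was -0.283 points and at 11709486 0.192 points.

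The largest differences in means came from sites with a wide spread. The intronic Dffa site (chromosome 5, 166189792), in a gene of apoptotic DNA fragmentation, was 7.4%, 0.4%, 0.4% and 9.5% in 4 controls and 0.4%, 7.3%, 19.2%, 32.7%, 88.8% and 97.5% in PRS samples. Control 29 had 2 reads there and was not used. The means were 4.43% ± 4.73 (n = 4) and 41.0% ± 42.0 (n = 6), and the difference of 36.6 points had an exact p of 0.171. At Ankrd28 7168464, a 3′ UTR site on chromosome 16, the difference of -15.7 points rested on control 29 at 99.3%, since the other controls lay between 14.4% and 25.9% and the PRS samples between 15.4% and 23.7%. Without control 29 the difference was 0.167 points.

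The intergenic IG5 site (chromosome 5, 145407422) was at 53.0% in control 20, from 0.0% to 13.2% in the other controls and from 1.9% to 12.6% in PRS samples, a difference in means of -9.79 points (exact p = 0.506). Without control 20 it was -0.725 points. Smaller differences of this kind were 5.36 points at Hip1, 4.98 at Plekhd1 104487197 and 4.62 at Ankrd28 7168481, with exact p values of 0.247, 0.225 and 0.459. At Ankrd28 7168481 the difference was 0.80 points without control 29. At Hip1 it was 2.28 points without PRS 24, 3.48 without control 20 and 3.53 without control 29. At Plekhd1 104487197 the levels were spread in both groups, with controls between 0.2% and 12.1% and PRS samples between 0.3% and 17.6%.

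By genomic class, the share of tested sites with an unadjusted p under 0.05 was 3 of 40 nonsynonymous, 2 of 16 synonymous, 0 of 72 3′ UTR, 0 of 6 5′ UTR and 1 of 7 intergenic sites, beside 6 of 144 in all. The mean was higher in PRS at 25 nonsynonymous sites and lower at 15, and higher at 47 3′ UTR sites and lower at 25. The median difference was 0.083 points at nonsynonymous and 0.122 points at 3′ UTR sites. The clustered 3′ UTR sites of Ankrd28, Plekhd1, Usp29, Dagla and Psma3 followed this split, with 24 of 34 higher in PRS and none past the test. Among the 20 Ankrd28 sites, many of them neighbours, 13 had a higher mean and 7 a lower one. The nuclear and RNA-binding genes Nova1, Son, Pum2 and Celf4 held 13 tested sites, 8 higher and 5 lower, with a median difference of 0.127 points.

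In the AMY, 3 of 144 sites tested (2.08%) had an unadjusted exact p under 0.05, and 0 passed the FDR of 0.1. The same receptor sites gave the following values there. Htr2c A was 91.2% ± 1.70 in controls (SD, n = 5) and 90.3% ± 1.52 in the PRS group (SD, n = 7), a difference of -0.929 points against 4.10 in the PFC. Gria3 L differed by -0.226 points against 0.733, Gria4 L by 0.15 (with 4 controls) against 0.583 and Gabra3 by 0.92 against 2.41. The signs thus differed between regions at Htr2c A and Gria3 L. Over the 29 sites, 11 had a higher mean in PRS in the AMY and 18 a lower one, with a median difference of -0.137 points against 0.387 in the PFC, or 0.075 in the PFC without control 29.

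The difference between the effects in PFC and AMY was tested by an exact permutation of the labels within each region at the 140 sites tested in both. Unadjusted, 7 sites (5.0%) had a p under 0.05, and none passed the FDR of 0.1, with a smallest adjusted p of 0.735. The lowest unadjusted permutation p was at Gria3 L, 0.00779, with a difference of effects of 0.959 points. At Htr2c A it was 5.03 points (permutation p = 0.0169, adjusted p = 0.735) and at Gabra3 1.49 points (permutation p = 0.40). Without control 20 of the PFC, 1 site passed the FDR, Igf1 in its 3′ UTR (adjusted permutation p = 0.0160), where the AMY difference was -5.83 points. Igf1 encodes an insulin-like growth factor. Whether PFC and AMY samples came from the same rats is not given, and they were treated as separate.

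**Figure D5:**
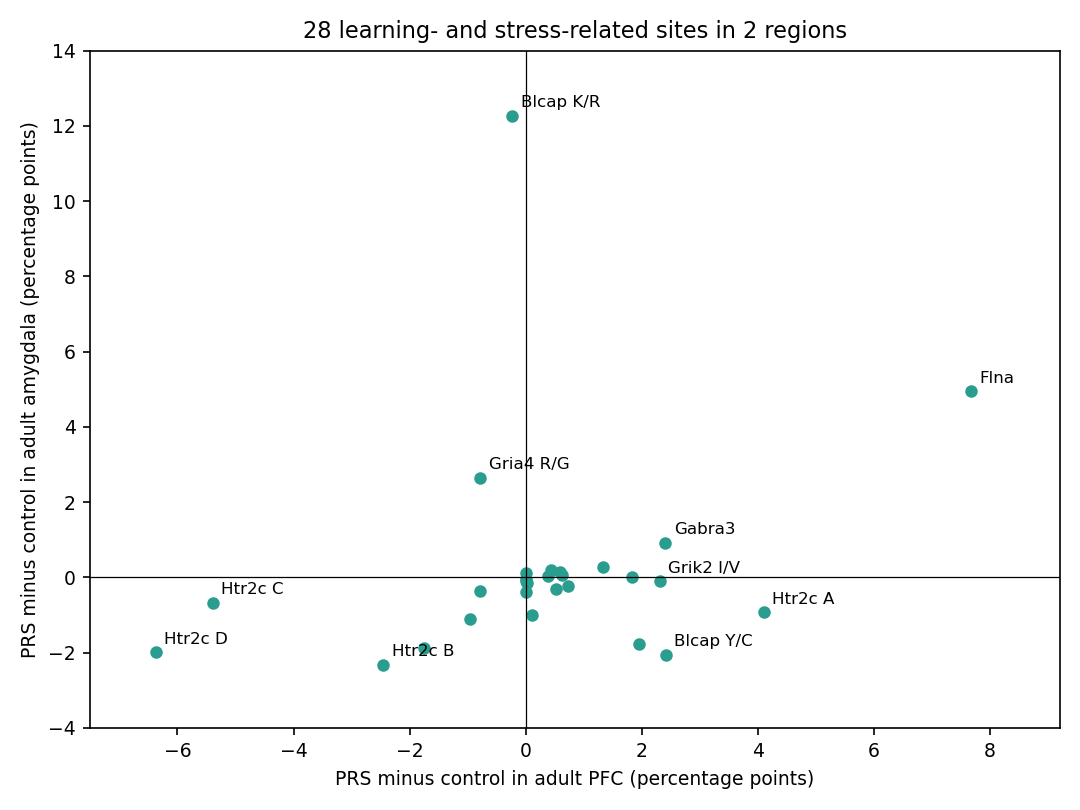
Difference in mean editing level, PRS minus control in percentage points, in adult PFC (horizontal, 5 control and 6 PRS) and adult amygdala (vertical, 5 control and 7 PRS) for 28 of the learning- and stress-related sites, 1 point per site. Htr2c A lies at 4.10 points in the PFC and -0.929 in the amygdala, and Blcap K/R stands out in the amygdala at 12.3 points through 1 PRS sample at 82.1%.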

How the data were processed

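RNA editing was measured by mmPCR-seq. The authors mapped reads with BWA to the rat build rn4 with splice junction sequences, allowing 9 mismatches, and used SAMtools. The deposited counts are the reads and the edited reads at 179 listed sites. The deposited editing level is a fraction rounded to 3 decimals, printed here in percent. The study's minimum of 50 reads, not applied in the files, was applied here.

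Samples were grouped by their labels. Sites with 3 or more samples a side entered a two-sided Mann-Whitney U test, exact and with mid-ranks, and Benjamini-Hochberg adjustment over all sites, at an FDR of 0.1. Means over sites and differences between regions were tested by exact permutation. Gene names follow the study's site list; 1 site listed there on another chromosome was matched through the primer list. Of 67 genes, 65 matched a RefSeq symbol and 1 a synonym (GRCr8). Named were Htr2c A to D, the 29-site list (1 member is not reported here), Adarb1, sites with p under 0.05, sites past the FDR between regions and the 10 largest differences among sites of at least 1%. The members and lists were chosen with earlier results of these data known. The samples are separate rats by the study's design. No pair of samples agreed within counting noise (lowest chi-square per degree of freedom 6.11 over 55 pairs). This cannot exclude a duplicate, since repeat libraries of the same RNA may also differ by more than counting noise. The tests were run on simulated data, with shifts larger than nearly all differences seen here and a smaller spread than at some sites. That run therefore does not show power for differences of the size seen. Alternatives were other tests, the logit scale, pooled reads, other read and level minimums, the study's 146 sites and each sample left out. Computation used scipy 1.17.1 and pandas 2.3.3 in Python 3.11.15, with numpy 2.4.6, and plots used matplotlib 3.10.9. The other samples of the series were not used here.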

Additional observations from a re-analysis of the deposited data

Results flagged for a closer look

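In each group of 4 to 6 samples the lowest and highest samples were compared with the rest by Dixon's criterion. This was done for each named site, for mean editing and for total reads. For independent normal values, chance alone flags about 1 in 20 groups. Sites that share an amplicon are not independent and levels near either end of the scale are bounded. Some named sites were also chosen for a large difference or a low p in these same data. A single outlying sample can produce such a difference, so the rate of 1 in 20 gives no expected number of flags here. Of 86 groups, 13 held a sample far from the others.

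Control 29 accounted for 7 of these. It was at 99.4% at Htr2c B (other controls 77.9% to 84.0%), 67.9% at Htr2c C (31.0% to 35.2%) and 77.1% at Htr2c D (51.1% to 58.2%). It was at 99.3% at Ankrd28 7168464 (14.4% to 25.9%) and 0.2% at Ankrd28 7168481 (16.2% to 21.3%). At Grik2 M/V it was at 3.4% (7.1% to 8.4%) and at Gria2 Q/R at 99.5%, below the other 4. It also had the fewest reads, and the part of depth in these values was not tested.

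Control 32 was at 82.9% at Htr2c A (other controls 89.2% to 91.5%) and at 7.3% at Blcap K/R (0.0% to 2.1%), the latter from 14 edited of 191 reads. PRS 24 was at 5.6% at Blcap K/R (other PRS samples 1.1% to 2.1%). PRS 21 was at 82.4% at Adarb1 11709486 (85.8% to 87.3%). Control 20 was at 53.0% at IG5 (0.0% to 13.2%). Control 19 had 1454247 reads at the study's sites, against 149296 to 409342 in the other controls.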

How the results depend on the processing

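The count of sites past the FDR was 0 under every alternative run. This says little of stability, since for any to pass the Mann-Whitney test needed at least 7 sites at or near its smallest p with all samples, 14 with a control left out and 12 with a PRS sample left out. There were 4 to 7 sites at an unadjusted p under 0.05 across settings and 4 to 8 with 1 sample left out. Gabra3 and Gria3 L kept an unadjusted p under 0.05 in all of them that tested single sites, and without control 29 so did Gria4 L but not Htr2c A, Tm9sf1 or IG1. With reads pooled over a group, 2 sites of the learning and stress list had a p under 0.05 in place of 4 (3 to 4 with 1 sample left out). The difference in mean editing ranged from 0.198 points with at least 200 reads to 0.567 points with no read minimum, and from 0.146 to 0.371 points with 1 sample left out. On the logit scale it was 0.190 logit units. The count of sites that differed between regions was 0 to 1 with 1 sample left out.

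Signs turned at sites with small or widely spread differences. With pooled reads the differences were -3.53 points at Grik1, 0.028 at Blcap K/R, -0.195 at Gria2 L, 1.30 at Gria4 R/G, -0.094 at Gria3 K, 0.754 at Gria2 Q and -0.081 at Gria2 Q/R. On the logit scale they were 0.165 at Adarb1 11709490, 0.399 at Blcap K/R and -0.024 at Gria2 Q/R, and from recomputed levels -0.0086 at Gria3 K and -0.026 at Gria2 Q/R. With 1 sample left out, the ranges that crossed 0 were -0.283 to 4.79 at Adarb1 11709472, -3.86 to 0.192 at Adarb1 11709486, -21.1 to 0.167 at Ankrd28 7168464, -0.90 to 0.967 at Blcap K/R and -0.383 to 1.37 at Blcap Q/R. They were -0.06 to 0.125 at Gria2 L, -1.85 to 0.575 at Gria2 Q, -0.075 to 0.05 at Gria2 Q/R, -0.04 to 0.067 at Gria3 K, -2.56 to 1.72 at Gria4 R/G and -2.31 to 3.92 at Grik1. They were -0.383 to 0.867 at Grik2 M/V, -0.183 to 2.67 at Grik2 Y/C, -4.38 to 1.39 at Htr2c B, -7.84 to 1.38 at Htr2c C, -0.742 to 1.11 at Kcna1 and -0.267 to 0.408 at Kcnma1. The end of the range past 0 was the value without control 29 at Adarb1, Ankrd28 7168464, Blcap Q/R, Gria2 Q, Gria2 Q/R, Gria4 R/G, Grik1, Grik2 M/V, Grik2 Y/C, Htr2c B and Htr2c C. The cause was not tested.

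No paired analysis was possible because control and PRS rats are different animals and no pairing between them is given. Levels under 1% can rest on few edited reads, 1 to 12 per control sample at Gria4 L and 0 to 5 per sample at Tm9sf1.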

Other observations

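The spread between animals was larger in control than in PRS samples at 92 sites and smaller at 50. Without control 29, an alternative chosen after seeing the data, it was larger in control at 68 sites and in PRS at 74. Levels spanned more than 25 points over the 11 samples at 12 sites, and at 7 without control 29.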
